A study of Mus musculus with 22 samples.

Results

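The β-globin locus was examined in peak lists of 2 histone marks and of CTCF from mouse G1ER (G1E-ER4) cells. Members were the genes *Hbb-bt*, *Hbb-bs*, *Hbb-bh1*, and *Hbb-y*, 4 of 21951 protein-coding genes of the annotation, and every peak from 60 kb before the first gene to 60 kb after the last gene. This window ran from 103752524 to 103913216 on chromosome 7 (mm10, 160.7 kb), and 97 listed peaks touched it. G1ER cells are a single subclone of the G1E erythroid progenitor line. All groups shared the loss of *Gata1* and constitutive expression of GATA1-ER, a hormone-dependent GATA1 fusion protein. Cells grew with SCF and EPO and were taken before β-estradiol was added (0 h) or 2, 6, 12, and 24 h later. H3K4me3 and H3K27ac were profiled at all 5 times with 2 lists each, and CTCF at 0 h and 24 h with 1 list each, so the values for CTCF had no replicate check. The labels do not say whether replicates were separate cultures, so p-values measure only the spread between these lists.

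β-globin genes encode the β-like chains of hemoglobin. In the mouse, *Hbb-y* and *Hbb-bh1* serve primitive erythroid cells of the embryo, and *Hbb-bs* and *Hbb-bt* are the adult genes. A strong enhancer cluster upstream of *Hbb-y*, the locus control region (LCR), is needed for their high expression in red cell precursors and contacts the active promoters, and olfactory receptor genes lie on both sides of the cluster. H3K4me3 marks mostly active promoters, H3K27ac marks active promoters and enhancers, and CTCF is a zinc finger protein found at the bases of chromatin loops.

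All 4 genes lie on the minus strand, so upstream means a larger coordinate. The start sites of *Hbb-y*, *Hbb-bh1*, *Hbb-bs*, and *Hbb-bt* in GENCODE were 103853216, 103843164, 103827928, and 103813996. Distances below are from the *Hbb-y* start, positive towards the LCR. The window held 16 annotated genes, of which 7 were globin genes or pseudogenes and 7 olfactory receptor genes. RefSeq (GRCm38.p6) gave promoter sequences for 3 of the 4 members, *Hbb-bt*, *Hbb-bs*, and *Hbb-y*. They are shown because both adult genes and *Hbb-y* differ in their marks but share promoter elements. The 120 bases before the RefSeq start site are printed on the minus strand, 5′ to 3′, for *Hbb-bt* (chr7:103813924-103814043), *Hbb-bs* (chr7:103827929-103828048), and *Hbb-y* (chr7:103853208-103853327). Capitals mark the CACCC element, the CCAAT box, the TATAA box, and its variant ATAAAA on either strand.
Hbb-bt: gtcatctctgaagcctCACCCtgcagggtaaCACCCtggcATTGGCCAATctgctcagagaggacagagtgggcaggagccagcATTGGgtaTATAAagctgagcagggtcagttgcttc
Hbb-bs: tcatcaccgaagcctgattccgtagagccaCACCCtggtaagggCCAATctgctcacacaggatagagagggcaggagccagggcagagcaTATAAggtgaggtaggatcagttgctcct
Hbb-y: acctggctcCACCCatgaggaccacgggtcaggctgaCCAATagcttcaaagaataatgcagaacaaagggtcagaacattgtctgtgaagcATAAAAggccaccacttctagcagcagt

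CACCC, the core of sites for Krüppel-like factors such as KLF1, was found 2 times before *Hbb-bt*, at positions -104 and -89, and 1 time each before *Hbb-bs* (-90) and *Hbb-y* (-111). A forward CCAAT box stood at -75, -76, and -83 in these 3 promoters, and *Hbb-bt* had 2 further reversed copies at -80 and -36. TATAA was at -28 in *Hbb-bt* and at -29 in *Hbb-bs*, and *Hbb-y* had ATAAAA at -28. GATAA, the core of GATA factor sites, was not among these letters in any of the 3 windows. Over 32619 RefSeq promoters, windows of the same length held CACCC in 31.7%, CCAAT in 21.4%, both in 6.24%, TATAA in 11.9%, ATAAAA in 8.28%, and GATAA in 10.5%.

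The adult genes are near copies. *Hbb-bt* and *Hbb-bs* were identical at 96.2% of 1463 aligned bases from start to end of the gene, against 74.6% to 76.2% for the other pairs of members. Only reads mapped to a single place were used for peak calling. Of the 75-base stretches within *Hbb-bt*, 32.7% occurred once in the genome, and of those within *Hbb-bs* 36.7%. The 942 repeated positions of each gene all had a copy in the other. *Hbb-bh1* and *Hbb-y* were unique at 100% of positions. Within 2 kb of the start sites, the unique share was 74.9% for *Hbb-bt*, 76% for *Hbb-bs*, 95.7% for *Hbb-bh1*, and 100% for *Hbb-y*. Within 2 kb, the shares of the adult genes were thus close to each other. Farther out, bins centred from -36.19 to -32.19 kb, upstream of *Hbb-bt*, were 28.2% to 49.5% unique. Downstream of it, those at -43.19 and -42.19 kb were at 97.9% and 100%. Bins from -30.19 to -28.19 kb, downstream of *Hbb-bs*, were at 99% to 100%. Upstream of it, those at -23.19 and -22.19 kb were at 100% and 85.2%. Whether this bears on the marks of either gene was not tested. Over the whole window the unique share was 91.8%.

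**Figure D1:**
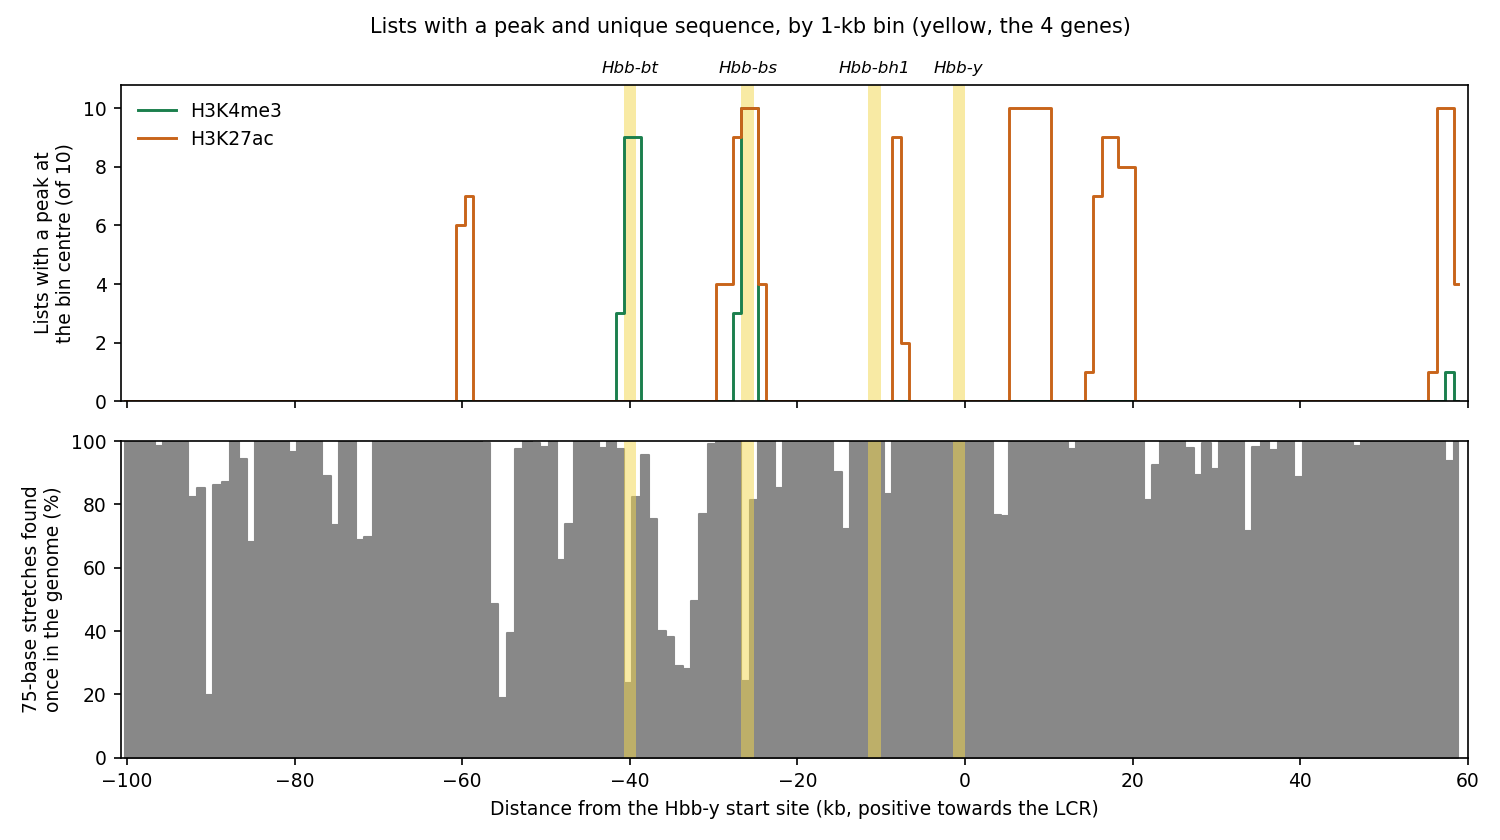
The upper panel shows, for each 1-kb bin by distance from the *Hbb-y* start (kb), the number of the 10 lists of each histone mark with a peak at the bin centre, and the lower panel the percentage of 75-base stretches that occur once in the genome. Yellow bands are the 4 genes. Bins within *Hbb-bt* and *Hbb-bs* fell to 23.5% and 24.4%, and H3K4me3 was listed over both.

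Levels of a mark are given as the length covered by peaks, because the lists hold positions and the peak caller's score but no read counts, and their depth is unknown. In the results below the score is given only as a percentile within its list. A missing peak means only that none was listed. No histone peak in any list exceeded 9200 bp, and the longest per list ranged from 8769 to 9200 bp. Of 10 erythroid markers, 7 had an H3K4me3 peak near the start site in all 10 lists and 1, *Tal1*, in no list. All 15 markers of T cells, B cells, macrophages, granulocytes, and endothelial cells were at 0 for both marks. For the 4 mast cell or progenitor markers the summed H3K4me3 length was 7467 to 7815 bp without estradiol and 3048 to 3645 bp after 24 h, and the part of this in the results was not tested. The lower sum came from *Cpa3* (2237 and 2350 bp, then 0 in both lists) and *Ms4a2* (2086 and 2380 bp, then 0 and 739 bp). *Kit* covered 3144 and 3085 bp at 0 h and 3048 and 2906 bp at 24 h, but was missing from replicate 1 at 2 h and replicate 2 at 12 h. *Gata2* was at 0 in all 10 lists. Of 3 hepatocyte markers, *Alb* and *Ttr* were at 0 and *Apoa2* had both marks in all lists.

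The first question was which of the β-globin genes carried active marks, and when. H3K4me3 was listed at both adult genes in 10 of 10 lists, including undifferentiated cells, and at *Hbb-bh1* and *Hbb-y* in none. H3K27ac was listed at *Hbb-bs* in 10 of 10 lists and at *Hbb-bt* in 0 of 10. Near *Hbb-bh1*, H3K27ac came within 2 kb of the start site in 9 lists, and at *Hbb-y* in none. The globin gene *Hbb-bh2* and the pseudogenes *Hbb-bh3* and *Hbb-bh0* had no peak of either mark near their start sites. None of the 7 olfactory receptor genes had a histone peak on the gene, and 1, *Olfr67*, had H3K27ac within 2 kb of its start in 8 lists. The window around the start of the pseudogene *Gm15115*, next to *Hbb-bs*, was reached by both marks in all 10 lists.

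**Figure D2:**
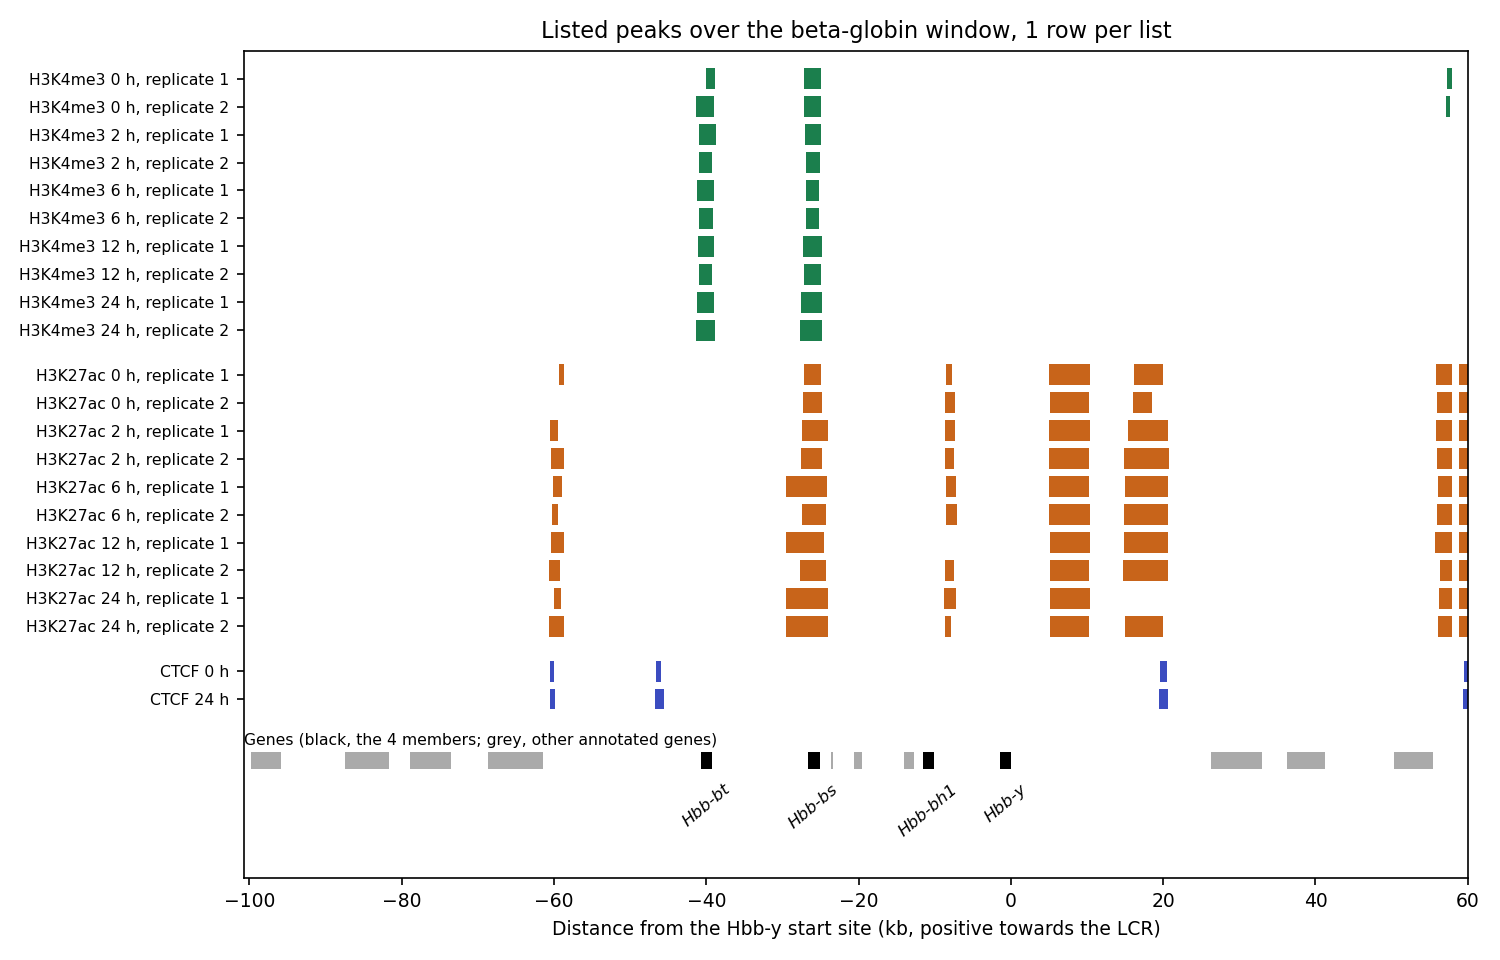
Each row is 1 peak list, and each bar is a listed peak over the window, by distance from the *Hbb-y* start (kb). H3K4me3 was limited to the adult genes apart from a short peak near 57 kb at 0 h, whereas H3K27ac covered *Hbb-bs*, the LCR side, and both flanks.

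At *Hbb-bt*, the H3K4me3 peak covered 1130 and 2356 bp without estradiol, 2280 and 1702 bp after 2 h, 2253 and 1949 bp after 6 h, 2098 and 1749 bp after 12 h, and 2167 and 2434 bp after 24 h. Replicate 1 at 0 h was the shortest, and the other 9 lists lay between 1702 and 2434 bp with overlapping times. The peak of that replicate stopped inside the gene, 0.72 kb before its 3′ end, while the other 9 ran past it by 0.22 to 0.61 kb. The union of these peaks (103811914 to 103814482) held the promoter, exons, and introns of *Hbb-bt*. The difference between 24 h and 0 h was 0.44 ± 0.28 on the log2(covered bp + 200) scale (limma estimate ± SE, adjusted p = 0.649), and without replicate 1 at 0 h it was -0.03.

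At *Hbb-bs*, H3K4me3 covered 2119 and 2170 bp without estradiol, 2026 and 1884 bp after 2 h, 1744 and 1779 bp after 6 h, 2432 and 2200 bp after 12 h, and 2717 and 2968 bp after 24 h. Both lists at 24 h were longer than all 8 earlier lists, and both at 6 h were the shortest. The peaks spanned the whole gene and its promoter (union 103825509 to 103828476). Their 3′ edges lay 0.43 and 0.45 kb beyond the gene at 0 h and 0.83 and 1.02 kb beyond it at 24 h. The difference was 0.37 ± 0.07 (limma, adjusted p = 0.0557), just short of the 0.05 threshold. The median length of all H3K4me3 peaks was also highest at 24 h, at 2228 and 2220 bp against 2069 to 2188 bp earlier. Scaled by median peak length, the difference was 0.32 (limma, adjusted p = 0.0799). Within its list, the length of the *Hbb-bs* peak stood at percentiles 66.3 and 72.7 at 24 h and 36.5 to 58.5 earlier.

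The rank of these 2 peaks also differed at 24 h. At *Hbb-bt*, the score stood at percentiles 24.2 and 20.5 of all H3K4me3 peaks at 0 h, between 19.2 and 26.4 from 2 h to 12 h, and at 36.8 and 38 after 24 h. At *Hbb-bs*, the percentiles were 28.1 and 26.5 at 0 h, between 20 and 28.6 from 2 h to 12 h, and 36.3 and 38.2 after 24 h. For each gene, both lists at 24 h were above all 8 earlier lists, and no test was run on ranks. The highest percentile of these 20 peaks was 38.2.

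The other H3K4me3 region lay between genes at 57.10 to 57.97 kb (103910319 to 103911181). It covered 759 and 624 bp without estradiol and was in none of the 8 later lists, and it was weak, with scores at percentiles 10.6 and 3.83. The difference at 24 h was -2.15 ± 0.43 (limma, adjusted p = 0.0612). It counted as the only H3K4me3 region of 3 lost by 24 h, defined as a peak in both lists at 0 h and in neither at 24 h, and 0 were gained. Genome-wide, 4.33% of 16244 H3K4me3 regions were gained or lost at 24 h. H3K27ac stayed listed over the same place in all 10 lists, with 1666 to 2240 bp. By limma, 0 of the 3 H3K4me3 regions passed an adjusted p of 0.05 between 24 h and 0 h, while 2 of 3 passed an unadjusted p of 0.05. With a pseudocount of 50 bp, *Hbb-bs* and the lost region passed (limma, adjusted p = 0.0462 and 0.0359). Among all 14862 regions tested, 1.58% were called and 12.4% passed the unadjusted threshold. Over the promoter windows, 0 of 2 members tested passed (1 at an unadjusted p of 0.05), against 0.278% of 10068 genes called and 7.63% at the unadjusted threshold.

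Next, the H3K27ac peak at *Hbb-bs* was longer in every list with estradiol than in those without. It covered 2208 and 2486 bp without estradiol, 3443 and 2660 bp after 2 h, 5364 and 3108 bp after 6 h, 4957 and 3447 bp after 12 h, and 5583 and 5574 bp after 24 h. All 8 later lists exceeded both lists at 0 h, and both at 24 h exceeded all others. At 24 h, most of the added length lay on the 3′ side, towards *Hbb-bt*. The peak ended 0.46 and 0.58 kb beyond the gene at 0 h and 2.87 and 2.88 kb beyond it at 24 h. In 4 lists, replicate 1 at 6 h and 12 h and both at 24 h, the 3′ edge fell between 103823650 and 103823709, while the other 6 lists ended 0.46 to 1.05 kb beyond the gene. On the 5′ side, the edge lay 0.35 and 0.51 kb upstream of the start at 0 h and 1.31 and 1.29 kb at 24 h. The whole region (103823650 to 103829242) thus held the promoter, exons, and introns of *Hbb-bs* and intergenic DNA on both sides.

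The difference at *Hbb-bs* between 24 h and 0 h was 1.18 ± 0.28 on the log2 scale (limma, adjusted p = 0.0603), which missed the threshold. Leaving out replicate 1 or replicate 2 at 6 h took it past the threshold (limma, adjusted p = 0.0243 in both cases), whereas dropping any 1 of the 4 lists compared gave adjusted p from 0.166 to 0.219. Its scores did not follow its length. The score percentile began at 56.7 and 54.9, stood at 36.6 and 40.5 after 6 h of estradiol, and at 52 and 44.9 after 24 h.

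**Figure D3:**
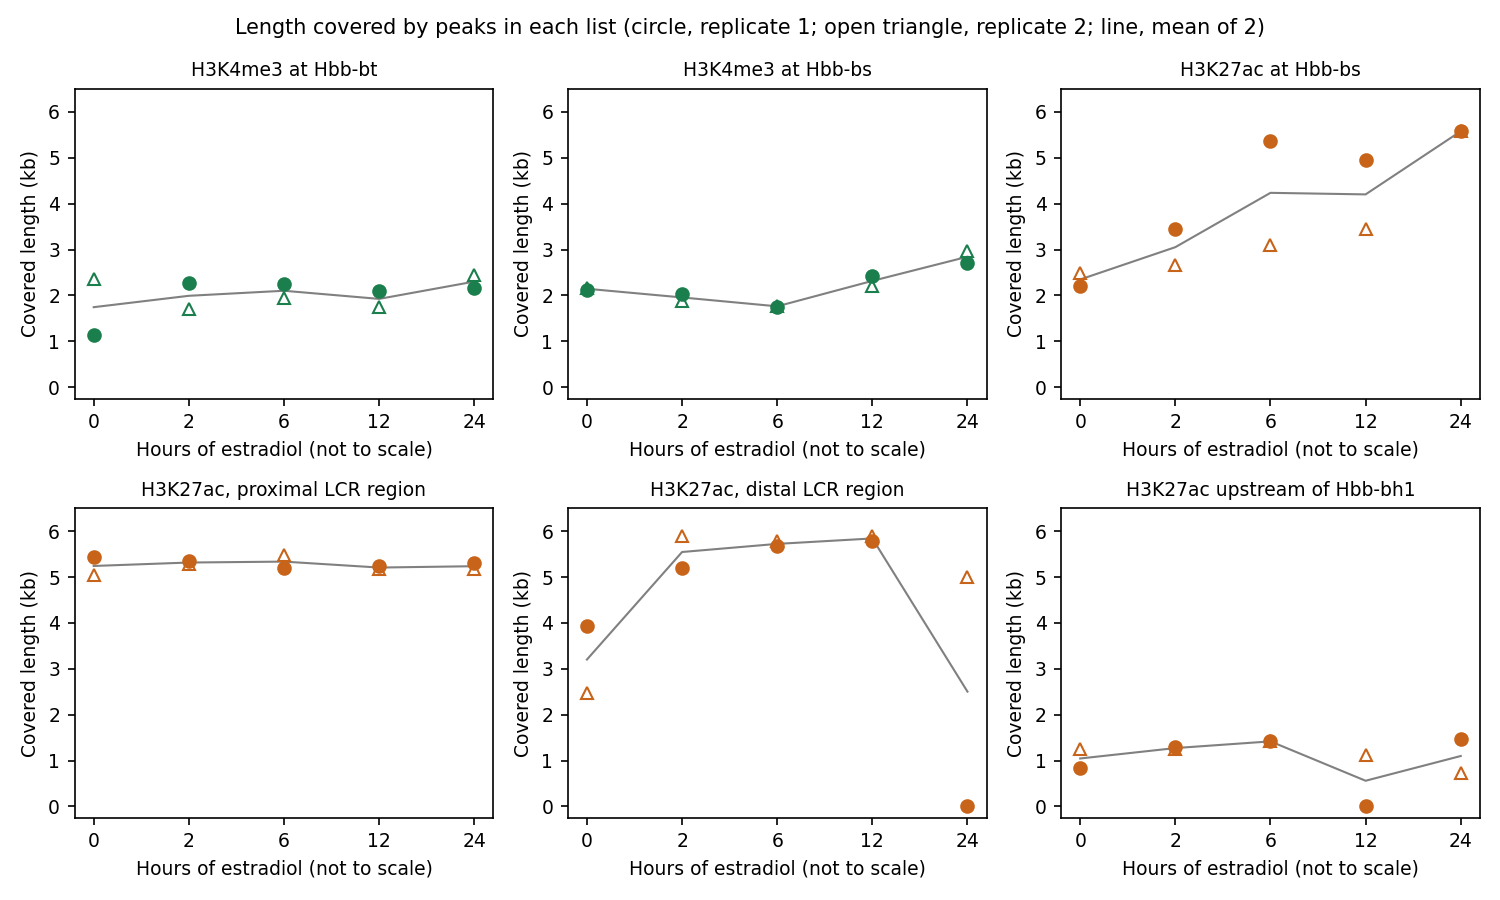
Points are the length covered by peaks (kb) in each list at 6 regions, by hours of estradiol on an axis that is not to scale, with the mean of 2 lists as a line. H3K27ac at *Hbb-bs* covered 2208 and 2486 bp at 0 h and 5583 and 5574 bp at 24 h, the proximal LCR region stayed between 5042 and 5479 bp, and the distal LCR region was listed at 0 in replicate 1 after 24 h.

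Over the whole span of globin genes (103812524 to 103853216), H3K27ac covered 3391 ± 486 bp without estradiol, 4322.5 ± 578 bp after 2 h, 5653 ± 1592 bp after 6 h, 4760.5 ± 278 bp after 12 h, and 6676.5 ± 545 bp after 24 h (mean ± SD, n = 2). All of this length lay in the *Hbb-bs* region and in a short region upstream of *Hbb-bh1* described below. The total is therefore not separate from the length at *Hbb-bs* given above. Against hours, Spearman's rho was 0.812 (two-sided permutation test, p = 0.00763). After Benjamini-Hochberg adjustment over the 7 trends tested, p was 0.0534 for rho. Pearson's r was 0.759 (permutation p = 0.0128, adjusted p = 0.0447). The trend therefore passed the correction by r and not by rho. Over the 8 lists up to 12 h, r was 0.479 (exact permutation p = 0.237) and rho was 0.732 (exact permutation p = 0.0548), so neither passed 0.05 without the lists at 24 h. By rho it passed when replicate 1 at 2 h, replicate 1 at 6 h, or replicate 2 at 12 h was left out (rho 0.848, 0.907, and 0.873, exact permutation adjusted p = 0.0432, 0.0111, and 0.0259).

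H3K4me3 over the same span covered 3582.5 ± 472 bp without estradiol and 4600.5 ± 286 bp after 24 h (SD, n = 2). Here rho was 0.689 (permutation p = 0.0357, adjusted p = 0.125) and r was 0.797 (permutation p = 0.00542, adjusted p = 0.0379), falling to r = 0.353 and rho = 0.39 (exact permutation p = 0.375 and 0.361) once both lists at 24 h were left out. Without replicate 2 at 0 h, rho was 0.848 (exact permutation adjusted p = 0.0267). An exact permutation of 2 lists against 2 allows no p under 0.333, so single times were not compared in this way.

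Between the embryonic genes *Hbb-bh1* and *Hbb-y*, a short H3K27ac region lay at -8.73 to -7.13 kb (103844488 to 103846084), upstream of the *Hbb-bh1* start and outside any gene. It covered 839 and 1249 bp without estradiol, 1288 and 1254 bp after 2 h, 1415 and 1419 bp after 6 h, 0 and 1117 bp after 12 h, and 1479 and 717 bp after 24 h. It was thus missing from replicate 1 at 12 h, and the lists at 24 h spanned those at 0 h (limma difference 0.02 ± 0.82, adjusted p = 1). All 9 peaks were weak, at score percentiles from 5.7 to 29.2. No list of either mark had a peak over the *Hbb-bh1* gene itself.

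The LCR side, the 30 kb upstream of *Hbb-y*, held H3K27ac and no H3K4me3. Its proximal region at 4.95 to 10.43 kb (103858169 to 103863647) had the smallest error of the 7 H3K27ac regions. It covered 5441 and 5042 bp without estradiol, 5358 and 5275 bp after 2 h, 5194 and 5479 bp after 6 h, 5235 and 5179 bp after 12 h, and 5296 and 5177 bp after 24 h, so all times overlapped. Its difference at 24 h was 0.00 ± 0.06 (limma, adjusted p = 1). In length, these peaks stood between percentiles 92.1 and 94.1 of their lists. The score percentile was 53 and 58.1 at 0 h, between 59.2 and 69.9 from 2 h to 12 h, and 72.1 and 72 after 24 h, above all earlier lists.

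Motifs known from erythroid enhancers were sought in the proximal region, and binding to them was not measured in these lists. TGAGTCA, the core of sites for NF-E2 and for AP-1 proteins, occurred 5 times in its 5479 bp on either strand. As many matches were found in 0.406% of 466748 genome tiles of the same length, and at least 1 match in 57.2%. The motif AGATAA, which GATA factors bind, occurred 7 times, and as many were found in 14.8% of the tiles (at least 1 in 96.9%). A pair of TGAGTCA copies at 7.87 to 7.88 kb and a copy beside AGATAA at 6.07 kb are shown, since these spots place such letters inside this peak. Sequences are on the minus strand, 5′ to 3′, at chr7:103861044-103861140 and chr7:103859248-103859334. Capitals mark both motifs on either strand.
proximal LCR region, pair of TGAGTCA: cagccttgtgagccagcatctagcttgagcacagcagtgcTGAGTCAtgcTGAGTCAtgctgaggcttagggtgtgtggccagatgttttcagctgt
proximal LCR region, TGAGTCA and AGATAA on the other strand: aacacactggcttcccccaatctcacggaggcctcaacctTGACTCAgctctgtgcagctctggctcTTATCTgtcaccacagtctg

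The distal LCR region, at 14.76 to 20.71 kb (103867974 to 103873923), also lay outside any gene. It covered 3922 and 2481 bp without estradiol, 5200 and 5892 bp after 2 h, 5667 and 5779 bp after 6 h, 5795 and 5888 bp after 12 h, and 0 and 5003 bp after 24 h. All 6 lists from 2 h to 12 h exceeded both lists at 0 h, and replicate 1 at 24 h had no peak there. As the peaks became longer their scores were lower, from percentiles 47.3 and 59.9 at 0 h to between 16.7 and 35.2 from 2 h to 12 h. The differences at 2, 6, and 12 h were 0.79, 0.83, and 0.86, each ± 1.32 (limma, adjusted p = 0.952, 0.916, and 0.858). The difference at 24 h was -1.70 ± 1.32 (limma, adjusted p = 0.551). It was 0.65 without replicate 1 at 24 h (adjusted p = 0.257) and -4.05 without replicate 2 (adjusted p = 9.41e-04), so its direction turned on which list at 24 h was kept. Why replicate 1 lacked a peak was not tested. That list was otherwise of usual size, with 17724 peaks and a longest peak of 8973 bp. The region held no TGAGTCA, which 60.1% of tiles of its length held, and 6 copies of AGATAA, as many as in 30% of tiles. All its 75-base stretches were unique.

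Over the whole LCR side, H3K27ac covered 8443 ± 1301 bp without estradiol and 10862.5 ± 431 bp after 2 h (SD, n = 2). It covered 11059.5 ± 281 bp after 6 h, 11048.5 ± 26.2 bp after 12 h, and 7738 ± 3454 bp after 24 h. The 2 lists at 24 h had 5296 and 10180 bp. No trend was detectable, with rho = 0.0246 (permutation p = 0.971, adjusted p = 0.971) and r = -0.326 (permutation p = 0.391, adjusted p = 0.456). Over the 8 lists up to 12 h, r was 0.612 (exact permutation p = 0.0683) and rho was 0.634 (exact permutation p = 0.11).

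**Figure D4:**
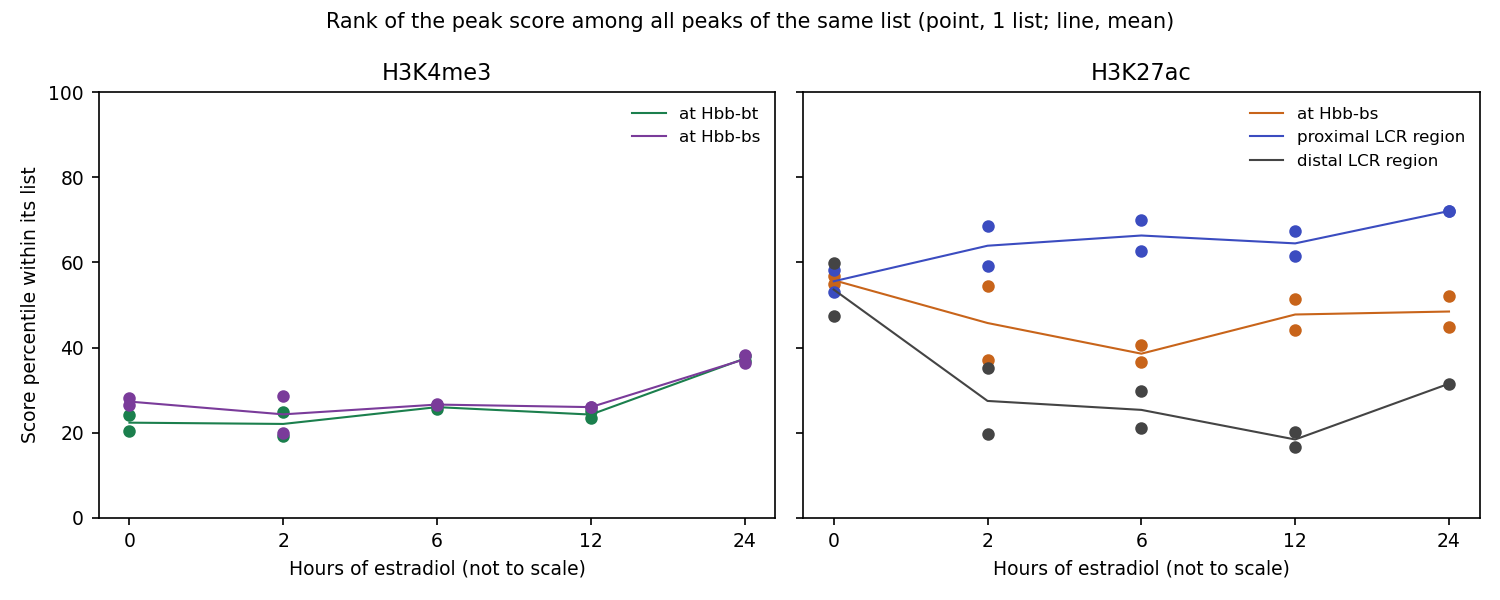
Points are the percentile of the peak score among all peaks of the same list, by hours of estradiol on an axis that is not to scale, and lines are means, over 1 list for the distal LCR region at 24 h. H3K4me3 at both adult genes stood at percentiles of 28.6 or lower up to 12 h and of 36.3 or higher at 24 h, and the proximal LCR region was at 72 and 72.1 after 24 h.

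In the flanks, 3 further H3K27ac regions were seen. The first lay at -60.62 to -58.63 kb (103792592 to 103794582), downstream of the adult genes and near the *Olfr67* start. It covered 695 and 0 bp without estradiol, 1112 and 1691 bp after 2 h, 1129 and 867 bp after 6 h, 1787 and 1451 bp after 12 h, and 908 and 1882 bp after 24 h. Every later list exceeded both lists at 0 h. The difference at 24 h was 1.84 ± 0.70 (limma, adjusted p = 0.198), 2.92 without replicate 1 at 0 h (adjusted p = 0.0287), and 0.76 without replicate 2 at 0 h (adjusted p = 0.47). The peak of replicate 1 at 0 h scored at percentile 2. On the LCR flank, regions at 55.73 to 57.98 kb and at 58.80 to 60.69 kb were in all 10 lists, with 1666 to 2240 bp and 1351 to 1874 bp. Their differences at 24 h, -0.18 ± 0.14 and -0.09 ± 0.17, did not pass the test (limma, adjusted p = 0.547 and 0.827).

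By limma, 0 of the 7 H3K27ac regions passed an adjusted p of 0.05 between 24 h and 0 h, while 2 of 7 passed an unadjusted p of 0.05, the one at *Hbb-bs* and the one near *Olfr67*. Among all 21011 regions tested, 6.32% were called and 21.2% passed the unadjusted threshold. The count was 1 of 7 when replicate 1 at 0 h, replicate 1 or 2 at 6 h, or replicate 2 at 24 h was left out. Of the promoter windows, 0 of 2 members tested passed (1 at an unadjusted p of 0.05), against 1.59% of 9659 genes called and 13.8% at the unadjusted threshold. *Hbb-bs* had a difference of 0.46 ± 0.13 (limma, adjusted p = 0.211) and *Hbb-bh1* of 0.17 ± 0.56 (limma, adjusted p = 0.977). *Hbb-bt* and *Hbb-y* did not enter this test, having no H3K27ac in any list, nor did *Hbb-bh1* and *Hbb-y* for H3K4me3. None of the 7 regions was gained or lost at 24 h by presence in both lists, against 7.61% of 24299 regions. This count was 1 without replicate 1 at 0 h and 1 without replicate 2 after 24 h.

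Then CTCF was placed on this map. The window held 4 CTCF peaks at 0 h and 4 after 24 h, and each peak at 0 h overlapped one at 24 h. Genome-wide, 92.1% of 33193 peaks at 0 h did so. Their centers at 24 h lay at -60.2, -46.2, 20.1, and 59.9 kb. The pair at -46.2 and 20.1 kb lay 66.2 kb apart and enclosed all 4 genes and both LCR regions, except that the latter overlapped the upstream end of the distal region. The first peak lay in the H3K27ac region near *Olfr67* and was overlapped by H3K27ac in 8 lists. The second, 5.5 kb beyond the 3′ end of *Hbb-bt*, was overlapped in 0 lists. The third lay at the upstream end of the distal LCR region and was overlapped in 8 lists, and the fourth in 10. No CTCF peak was overlapped by H3K4me3.

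CTCF scores stood at percentiles 67.8, 88.2, 70.9, and 64.7 of the list at 0 h and 88.5, 88.1, 81.4, and 84.2 of that at 24 h, in the order above. These percentiles come from lists of unequal size and were not compared further. Peaks were 549 to 908 bp long at 0 h and 742 to 1184 bp after 24 h, and each was longer at 24 h. The list at 24 h was also larger, with 41473 peaks, and its median peak was 866 bp against 807 bp. With 1 list per time, these differences have no error estimate.

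The core motif of CTCF, 13 letters with alternatives at several of them, was sought on both strands. The best match had 13, 11, 10, and 12 letters in the 4 peaks. At least 12 letters were found in 69.4% of all CTCF peaks at 0 h and 68.8% at 24 h, and in 7.58% and 8.11% of stretches of the same lengths 2 kb beyond them. The match at -60.2 kb was on the plus strand, and those in the other 3 peaks were on the minus strand. Flanks were counted only for at least 12 letters. The matches of 11 and 10 letters, at -46.2 and 20.1 kb, thus have no background share. The latter also lay 224 bp from the peak centre. No orientation is read from the strands of these matches. The matches of 11 letters or more are shown on their own strand, 5′ to 3′, with the 13 letters in capitals, since they place the outer and the 3′ CTCF peaks on the map. They lie at chr7:103793070-103793130 (-60.2 kb), chr7:103807049-103807109 (-46.2 kb), and chr7:103913155-103913215 (59.9 kb).
CTCF at -60.2 kb, plus strand: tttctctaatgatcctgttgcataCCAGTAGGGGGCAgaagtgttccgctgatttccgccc
CTCF at -46.2 kb, minus strand: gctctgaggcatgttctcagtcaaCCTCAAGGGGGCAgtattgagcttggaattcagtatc
CTCF at 59.9 kb, minus strand: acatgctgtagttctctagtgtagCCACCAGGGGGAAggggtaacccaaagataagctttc

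Finally, the locus was set beside the rest of the genome and the α-globin locus. H3K27ac covered 19081.7 bp of the window on average over 10 lists, more than in 97.5% of 16362 tiles of the same length, and H3K4me3 covered 4354 bp, more than in 83.8%. In the α-globin window (*Hba-a1* and *Hba-a2* with 60 kb on each side, 133.8 kb), where the adult α-chain genes lie among widely expressed genes, the averages were 23391.7 and 8901.8 bp. H3K27ac in the β-globin window covered 15438 ± 1346 bp without estradiol, 19787.5 ± 153 bp after 2 h, 20818 ± 1373 bp after 6 h, 20559.5 ± 904 bp after 12 h, and 18805.5 ± 3665 bp after 24 h (SD, n = 2). In the α-globin window it covered 22724.5 ± 3809 bp without estradiol and 28574 ± 4277 bp after 24 h. For the window as a whole, rho with hours was 0.468 for H3K27ac (permutation p = 0.181, adjusted p = 0.423) and 0.271 for H3K4me3 (permutation p = 0.461, adjusted p = 0.645). The corresponding r was 0.224 (permutation p = 0.545) and 0.545 (permutation p = 0.103). The log2 ratio of the β-globin to the α-globin window gave rho = -0.0492 for H3K27ac (permutation p = 0.919, adjusted p = 0.971) and 0.345 for H3K4me3 (permutation p = 0.34, adjusted p = 0.595). Its r was -0.345 (permutation p = 0.331) and 0.474 (permutation p = 0.172). None of these 4 trends passed 0.05 over the 10 lists. Over the 8 lists up to 12 h, H3K27ac in the window gave rho = 0.83 (exact permutation p = 0.0198, not adjusted) and r = 0.667 (exact permutation p = 0.0567). For H3K4me3 in the window, r was then -0.139 (exact permutation p = 0.763), and for the ratio r was 0.389 for H3K27ac (exact permutation p = 0.34) and -0.115 for H3K4me3 (exact permutation p = 0.777).

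**Figure D5:**
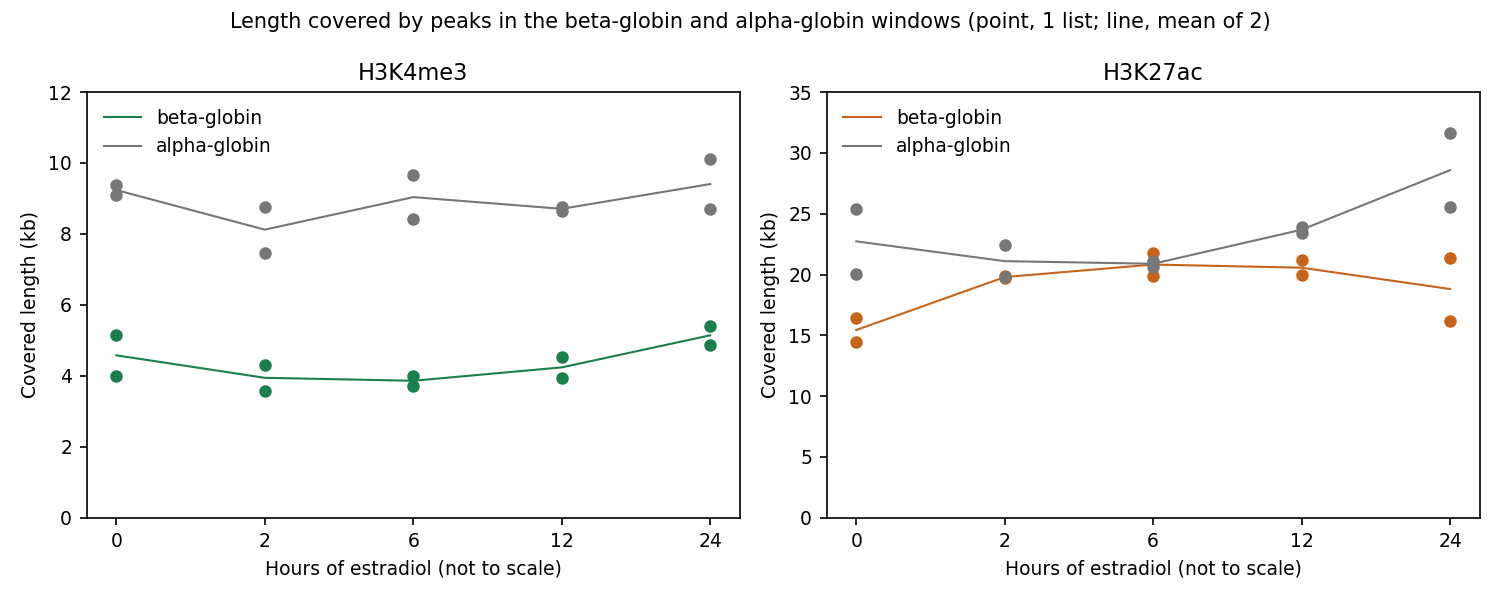
Points are the length covered by peaks (kb) in each list over the β-globin window (colored) and the α-globin window (grey), by hours of estradiol on an axis that is not to scale, and lines are means of 2 lists. H3K4me3 covered more of the α-globin than of the β-globin window in every list, and for H3K27ac the covered lengths overlapped at 2 h and 6 h. The windows differ in length (160.7 kb for β-globin and 133.8 kb for α-globin). As a share of its window, H3K27ac was higher at α-globin in every list, with 14.8% and 16.8% against 12.2% and 12.4% at 2 h.

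Of 15 LCR-binding factors, partners, and other globin-related genes fixed as a list, 14 were matched by symbol. For H3K4me3 11 of them had enough peaks for the test and for H3K27ac 7. By limma, 1 of the 11 was called between 24 h and 0 h (0.278% of all genes tested), *Zfpm1*, which encodes the GATA1 partner FOG1. H3K4me3 covered 3337 and 3431 bp of its promoter window at 0 h and 3567 and 3638 bp after 12 h, and after 24 h it was at 0 in both lists (limma, adjusted p = 6.6e-08). Wide peaks were also missing from single lists, as at *Ldb1* in replicate 2 at 24 h and at *Nfe2* in replicate 1 at 2 h, both named after their values were seen, with 3474 to 3838 bp and 3250 to 3697 bp in their other 9 lists. *Lmo2*, likewise named after its values were seen, passed only an unadjusted p of 0.05 for H3K4me3 (limma, adjusted p = 0.0546). It covered 1450 and 1308 bp at 0 h and 2680 and 2739 bp after 24 h. Of all genes tested for H3K4me3, 7.63% passed the unadjusted threshold. For H3K27ac, 0 of the 7 were called (1.59% of all genes tested), with 2 of 7 at an unadjusted p of 0.05. *Gata1*, which these cells lack, *Tal1*, which binds with GATA1, and *Bcl11a*, a repressor of embryonic globin genes, were at 0 for both marks in all lists. The protein-coding genes outside the window whose promoter length followed that of the whole window most closely over 10 lists were *Psmd9*, *Eif3c*, *Pigh*, *Gtpbp6*, and *Zfp605* for H3K4me3 (Pearson's r from 0.926 to 0.964 among 10066 genes) and *Cebpd*, *Jagn1*, *Tnfaip8*, *Cog6*, and *Acot13* for H3K27ac (r from 0.882 to 0.919 among 9656 genes). These values describe the lists only.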

How the data were processed

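ChIP-seq peak lists (22, in 12 groups) were grouped by antibody and hours as the sample titles give them. The authors mapped histone mark reads from a 75-bp kit to mm10 (Bowtie2, default settings), used those with a single mapping place, and called peaks with MACS without its model step, per library and without pooling. The version, control, and threshold, and the steps for CTCF, are not given in the sources used here. The deposited score per peak, with a lowest value of 50.00, is not comparable between libraries. The labels mention a human build, but 58% to 64.3% of H3K4me3 peaks held a protein-coding start site of GENCODE M21 (GRCm38), against 4.3% to 4.61% when moved by 50 kb. Depth is unknown, so presence of a peak depends on depth and background too, and no interval could be given.

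Per mark, overlapping peaks of its 10 lists were joined to form regions, and promoters were 2 kb on either side of 1 start site per gene, that of the longest transcript at the best APPRIS level. The start sites of *Hbb-bt* and *Hbb-y* differ slightly between GENCODE and RefSeq. Trends used permutation tests (100000 resamples, or exact for fewer than 10 lists). H3K4me3 on the LCR side was 0 in every list and was not tested. Regions and promoters with a peak in at least 2 lists entered limma as log2(covered bp + 200), with a mean per time point, and Benjamini-Hochberg adjustment ran over all features. The test was checked on simulated data with known changes. Unique sequence was an exact match of 75 bases, on both strands of the assembled chromosomes. Gene pairs were aligned globally. Motif shares came from tiles, promoters, or flanks of the same length.

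Named were the 4 members, peaks and regions of the window, other genes with a peak near their start site, called or unlisted genes of the factor list, and the 5 most similar genes per mark. The H3K27ac counts of the erythroid markers are not reported here. Members, lists, and tests were chosen with earlier results of these data known. Alternatives were other peak thresholds, list sizes, flanks, pseudocounts, filters, fits, and read lengths, and leaving out each list. The tools were limma 3.58.1 in R 4.3.3, and Python 3.11.15 with scipy 1.17.1, numpy 2.4.6, numba 0.67.0, matplotlib 3.10.9, and biopython 1.88.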

Additional observations from a re-analysis of the deposited data

How the results depend on the processing

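The lists carry no read counts, so a peak near the caller's threshold can be missed, and 2 lists per time leave wide errors. When peaks scoring under the median of all lists (860.28 for H3K4me3, 241.89 for H3K27ac) were dropped, a limit that treats scores of different libraries alike, rho for H3K27ac became -0.197 in the window and -0.689 on the LCR side (permutation adjusted p = 0.752 and 0.175), *Hbb-bs* promoter H3K27ac became -1.60 (limma, adjusted p = 0.801), and the lost H3K4me3 region dropped out (0), as it did with equal numbers of top-scoring peaks (0). These numbers left 1 H3K27ac region gained (1). With Pearson's r, the LCR side gave -0.326 and the gene spans 0.759 and 0.797. A flank of 100 kb turned the H3K4me3 difference from the α-globin window to -0.0739. Scaling by median peak length gave -0.04 for H3K27ac upstream of *Hbb-bh1*. H3K27ac regions called were 1 in a fit to 0 h and 24 h alone. H3K4me3 regions called were 2 with a pseudocount of 50 bp and 2 without the filter, in both cases *Hbb-bs* and the region at 57.10 kb. They were 1 in the fit to 0 h and 24 h and 1 with scaling, in both cases the region at 57.10 kb. *Hbb-bs* did not pass in these last settings (limma, adjusted p = 0.0774 and 0.0799). The cause was not tested.

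Same-numbered lists did not deviate together (correlations from -0.060 to 0.029 over 10 pairs of times for H3K4me3 and from -0.025 to 0.015 for H3K27ac). Such correlations cannot show whether same-numbered lists were prepared together, so pairing stays unknown. With a replicate block, H3K27ac over the gene span gave rho = 0.911 (exact permutation adjusted p = 0.0175), the LCR side gave -0.0739, and 1 H3K27ac region was called, at *Hbb-bs* (limma, adjusted p = 0.0474). It changed no other call.

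Leaving out each list in turn gave rho from 0.28 to 0.822 for H3K27ac in the window, -0.195 to 0.39 on the LCR side, 0.746 to 0.907 over the gene span, and -0.297 to 0.28 against the α-globin window. For H3K4me3, rho ranged from 0.576 to 0.848 over the gene span, 0.00848 to 0.576 in the window, and 0.11 to 0.653 against the α-globin window. H3K27ac regions called ranged from 0 to 1 (without either list at 6 h, replicate 1 at 0 h, or replicate 2 at 24 h), and regions gained or lost from 0 to 1. Log2 differences at 24 h ranged from 0.76 to 2.92 near *Olfr67*, -0.42 to 0.45 upstream of *Hbb-bh1*, -0.05 to 0.05 at the proximal and -4.05 to 0.65 at the distal LCR region, and, for H3K4me3 at *Hbb-bt*, -0.03 to 0.91 by region and -0.01 to 0.89 by promoter. Reads of 50 and 36 bases lowered the unique share of the 4 genes to 65.1% and 64.1%.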
